A study of Mus musculus with 2 samples.

Results

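The 41 neural splicing regulators are RNA-binding proteins of 12 families that choose which exons enter an mRNA: the Rbfox, Nova, Ptbp, Srrm, Elavl, Celf, Mbnl, Khdrbs, Qk and Msi families, the Tra2 pair and 10 Srsf genes. The members were named as a list, without a cut on their levels but with earlier results of these data known. All 41 were found among the 43346 genes of the tables, with 286 transcripts. The samples are 2 libraries of total RNA from hindbrain of healthy B6NCrl mouse embryos at 15.5 days of development, from pools of 78 embryos (replicate 1) and 62 embryos (replicate 2) of both sexes. There is 1 tissue, 1 stage and no treatment, so levels and transcript shares are described and no difference between conditions can be given. Each library was made from 10 ng of RNA longer than 200 nt, and the pools hold whole tissue, in which fewer cells of a type and less RNA per cell cannot be told apart.

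Splicing regulators bind short motifs in and beside exons and either help or hinder the spliceosome there. In the developing brain a switch from Ptbp1 to Ptbp2, together with the rise of Nova, Rbfox, Srrm4 and neuronal Elavl proteins, is known to set the exon choices of neurons. Many of these genes also splice their own RNA: the SR genes (arginine and serine rich splicing factors, named Srsf) and Tra2b carry "poison" exons with an early stop codon, which send the transcript to nonsense-mediated decay (NMD), and members of the Ptbp, Mbnl and Celf families carry cassette exons that change the protein.

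Poison exons are shown first, because the transcripts that hold them took a measurable share of 4 of the SR and Tra2 genes. The sequences are from the GENCODE M21 transcripts on GRCm38, read 5′ to 3′ on the gene's strand. Lower-case letters are the last 15 bases of the exon before, and capitals run from the first base of the poison exon to its in-frame stop codon, the last 3 letters.
Srsf6 268-nt exon, chr2:162932815-162932966, plus strand: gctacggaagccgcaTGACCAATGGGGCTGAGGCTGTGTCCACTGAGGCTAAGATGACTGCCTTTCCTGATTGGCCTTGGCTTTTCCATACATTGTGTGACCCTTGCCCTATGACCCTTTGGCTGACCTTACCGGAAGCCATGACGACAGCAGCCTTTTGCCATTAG
Srsf3 456-nt exon, chr17:29039454-29039487, plus strand: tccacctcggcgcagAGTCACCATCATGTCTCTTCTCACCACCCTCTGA
Tra2b 276-nt exon, chr16:22259181-22259261, minus strand: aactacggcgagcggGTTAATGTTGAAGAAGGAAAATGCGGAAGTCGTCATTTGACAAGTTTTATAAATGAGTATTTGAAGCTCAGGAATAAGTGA
Srsf11 109-nt exon, chr3:158024209-158024231, minus strand: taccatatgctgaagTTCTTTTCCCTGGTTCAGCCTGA
The coordinates are those of the capitals. Counted from the exon's first base, the stop codon ended at 152 nt of the 268-nt exon in Srsf6, at 34 nt of the 456-nt exon in Srsf3, at 81 nt of the 276-nt exon in Tra2b and at 23 nt of the 109-nt exon in Srsf11.

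Coding cassette exons form the second set, because their inclusion was intermediate in both libraries and their flanks code for protein. Capitals mark the exon and lower-case letters the 15 neighbouring bases of the exons before and after it in the same transcript.
Mbnl1 54-nt exon, chr3:60614683-60614736, plus strand: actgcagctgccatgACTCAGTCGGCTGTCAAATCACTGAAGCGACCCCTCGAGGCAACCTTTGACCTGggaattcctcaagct
Mbnl1 36-nt exon, chr3:60621423-60621458, plus strand: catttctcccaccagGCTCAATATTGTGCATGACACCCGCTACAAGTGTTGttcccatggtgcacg
Ptbp1 78-nt exon, chr10:79860117-79860194, plus strand: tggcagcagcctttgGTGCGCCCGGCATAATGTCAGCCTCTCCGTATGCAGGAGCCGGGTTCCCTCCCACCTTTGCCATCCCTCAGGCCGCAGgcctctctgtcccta
Each of these lengths is a multiple of 3, as the filter for this set required. The reading frame is therefore the same with and without the exon.

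The last set shows splice acceptors 3 nt apart. Capitals mark the 3 bases that the longer form of the exon holds and the shorter form lacks, and the letters before them are the end of the exon before.
Celf1 114-nt exon, chr2:91009202-91009204, plus strand: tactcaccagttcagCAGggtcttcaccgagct
Celf6 81-nt exon, chr9:59604130-59604132, plus strand: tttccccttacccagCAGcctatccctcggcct
Srsf10 54-nt exon, chr4:135863523-135863525, plus strand: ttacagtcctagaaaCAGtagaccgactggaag
In all 3 genes the 3 bases were CAG and stood at the 5′ edge of the exon, so that the choice adds or removes 1 codon's length without moving the frame.

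The gene tables held 40020317 and 43263951 estimated counts in replicates 1 and 2. Levels are in TPM (a share of the library's transcripts, corrected for transcript length), and SD is over the 2 libraries. The labelled tissue was checked on markers: 6 of 6 neuronal markers were detected, with sums of 4221 and 4385 TPM in replicates 1 and 2, and 7 of 7 hindbrain Hox and Egr2 markers were detected, with sums of 241 and 280 TPM. Lhx2, from the list of forebrain markers, was at 50.7 TPM in replicate 1 and 9.96 TPM in replicate 2. Markers of dividing cells summed to 317 and 267 TPM, and those of choroid plexus to 898 and 1233 TPM. Erythroid markers gave the largest sums of the marker lists, 15771 and 12383 TPM, above the neuronal sums in both libraries. Those of meninges and fibroblasts reached 538 and 441 TPM. Midbrain markers were found as well, 4 of 5 of them, summing to 49.35 and 30.76 TPM. Of these 5, 3 were 1.5-fold or more lower in replicate 2 and 0 were higher by as much. These markers differed between the pools, and their part in the levels of the members was not tested.

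Every one of the 41 members was detected at 1 TPM or more in both libraries, against 63.1% of the 21461 nuclear protein-coding genes. Their median level was 68.8 ± 2.50 TPM (SD, n = 2), against 5.72 ± 0.0212 TPM over all nuclear protein-coding genes and 19.4 ± 0.350 TPM over the detected ones. The order ran from Srsf3 at 460 TPM down to Mbnl3 at 1.18 TPM. Of the 40 neighbouring pairs in that order, 27 did not overlap between the libraries. Srsf3 and Srsf2 at the top were separate but close, at no less than 451 TPM and no more than 445 TPM. Pairs that overlapped included Srsf11 with Rbfox1, Ptbp2 with Celf2, Ptbp1 with Rbfox3, Elavl1 with Nova1, and Nova2 with Srrm4. The members summed to 4414 and 4471 TPM, of which the 12 SR and Tra2 genes gave 2471 and 2457 TPM.

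**Figure D1:**
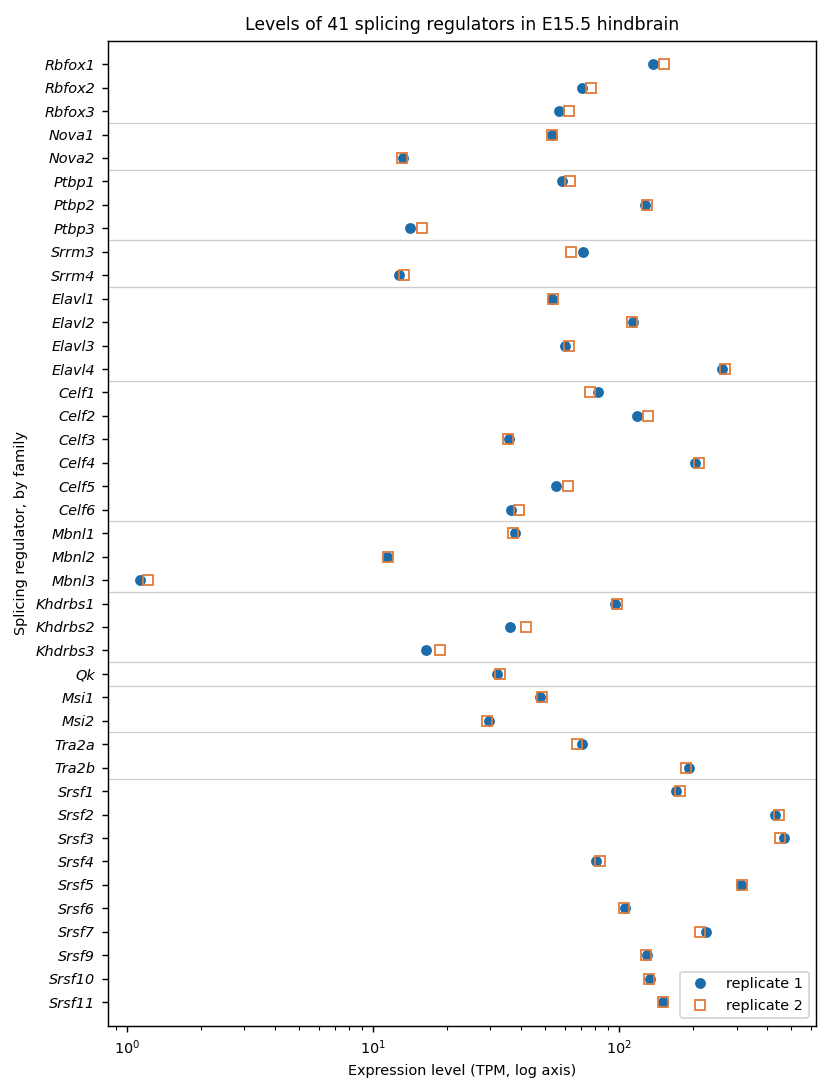
Level in TPM on a log axis for each of the 41 members, grouped by family, with filled circles for replicate 1 and open squares for replicate 2. The symbols of a gene lie close together for every member, Srsf3 is highest at 460 TPM over all its transcripts, and Mbnl3 is alone near 1 TPM.

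The libraries differed little in these genes. After scaling for library size by TMM, 0 of 41 members were 1.5-fold or more higher in replicate 2 and 0 of 41 were 1.5-fold or more lower, against 2.17% and 4.23% of the 16918 genes whose mean count reached 20. With shares this low, counts of 0 among 41 do not set the members apart from all genes. The log2 ratio of replicate 2 over replicate 1 ran between -0.17 for Srrm3 and 0.18 for Khdrbs2, a brain-enriched relative of Sam68, with a median of -0.02. The SD of this ratio was 0.0788 over the members and 0.403 over all genes, which were not matched on level. With scaling on the spike-ins the median gene moves by -0.11 and the median of the members was -0.13.

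Rbfox proteins bind the motif GCATG and act on neuronal and muscle exons. Rbfox1 had 137 and 152 TPM in replicates 1 and 2, Rbfox2, the most widely expressed of the family, 70.7 and 76.5 TPM, and Rbfox3, the NeuN antigen of mature neurons, 57.0 and 62.4 TPM. Rbfox1 thus held 52.0 ± 0.315% of the family's summed TPM, Rbfox2 26.5% and Rbfox3 21.5%, in the same order in both libraries. The order by reads was another one, since Rbfox2 had 11889 and 13601 estimated counts and Rbfox1 only 5226 and 6051. Rbfox1's TPM came mostly from Rbfox1-202, a transcript of 1191 nt with 87.0% of the gene's TPM and 64.7% of its counts.

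Nova proteins bind YCAY motifs and regulate synaptic exons. Nova1 was at 53.5 and 53.3 TPM and Nova2 at 13.2 and 13.1 TPM, so Nova1 held 80.2% of the pair's sum. Ratios of Nova1 to Nova2 were 4.05 and 4.06 in the 2 libraries.

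Ptbp proteins bind pyrimidine-rich tracts, and Ptbp1, the form of progenitors and non-neural cells, is known to repress Ptbp2, the form of young neurons. Ptbp2 had 127 and 130 TPM, Ptbp1 58.5 and 63.3 TPM and Ptbp3 14.1 and 15.8 TPM. Ptbp2 was 2.18 and 2.05 times Ptbp1 in replicates 1 and 2, and the values of the 2 genes did not overlap. Exons of Ptbp1 overlap the antisense gene Plppr3, which was at 321 TPM; whether the counting used strand is not stated, so reads of the pair may be mixed.

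The Srrm pair drives inclusion of microexons in neurons. Srrm3 had 71.5 and 63.8 TPM and Srrm4, also known as nSR100, 12.7 and 13.4 TPM, so that Srrm3 held 83.8 ± 1.59% of the sum. By reads the order turned round, with 1800 and 1728 estimated counts for Srrm3 and 2410 and 2693 for Srrm4. Srrm3-202, a transcript of only 526 nt, held 66.3% of Srrm3's TPM and 28.8% of its counts. With transcripts of 1000 nt or more alone, Srrm3 was at 14.5 ± 1.17 TPM and its share was 52.6 ± 2.91%.

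Elavl proteins bind AU-rich RNA: Elavl1 (HuR) is expressed in all tissues, and Elavl2, Elavl3 and Elavl4 are the neuronal Hu proteins. Elavl4 had 261 and 268 TPM, Elavl2 114 and 113 TPM, Elavl3 60.2 and 62.3 TPM and Elavl1 53.4 and 54.0 TPM. Elavl4 thus held 53.7% of the family's sum and the 3 neuronal members were each above Elavl1. This order also depended on short transcripts: Elavl4-211, annotated as a processed transcript of 869 nt without a coding frame, held 40.8% of Elavl4's TPM and 20.3% of its counts. Over transcripts of 1000 nt or more Elavl4 was at 74.1 ± 0.714 TPM and held 24.9%, below Elavl2 at 36.5%.

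**Figure D2:**
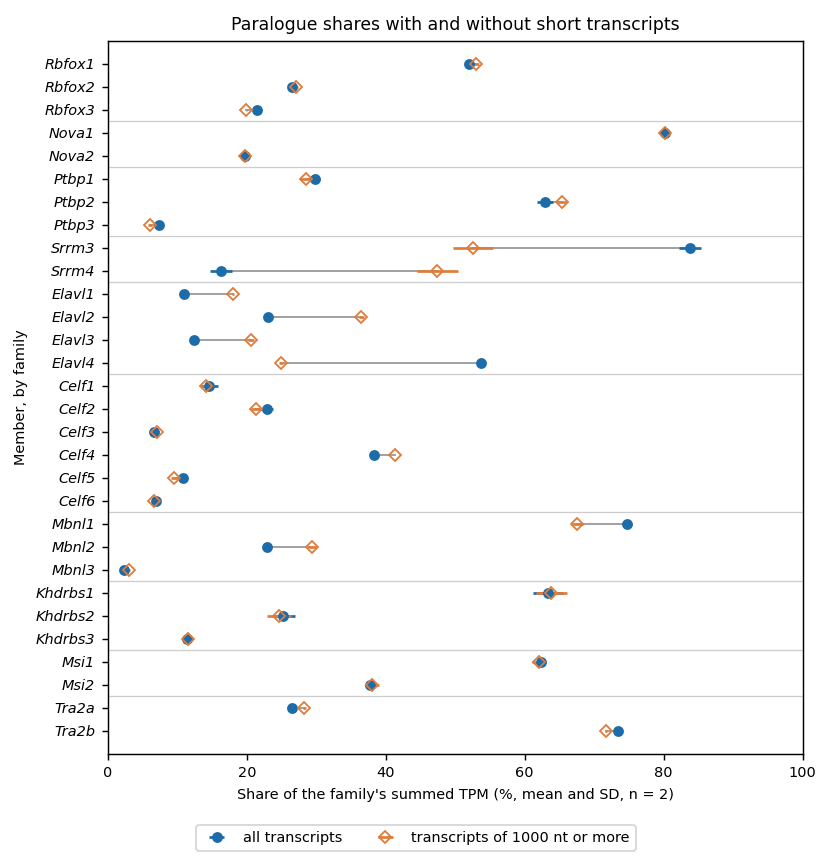
Share of each family's summed TPM held by its members (mean and SD of 2 libraries), from all transcripts (filled circles) and from transcripts of 1000 nt or more alone (open diamonds). The symbols lie far apart for Srrm3, at 83.8% and 52.6%, its partner Srrm4, at 16.2% and 47.4%, and Elavl4, at 53.7% and 24.9%, and lie close together for Rbfox, Nova, Khdrbs and Msi.

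Celf proteins bind GU-rich RNA. The family summed to 543 TPM, led by the brain-enriched Celf4 at 203 and 212 TPM, which held 38.2% of it. Celf2 followed at 118 and 131 TPM and the broadly expressed Celf1 at 81.9 and 76.2 TPM. Celf5, Celf6 and Celf3, also brain-enriched, had means of 58.4, 37.6 and 35.6 TPM.

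Mbnl proteins bind YGCY motifs and are the proteins sequestered by repeat RNA in myotonic dystrophy. Mbnl1 had 37.9 and 37.0 TPM, Mbnl2, which acts in the adult brain, 11.4 and 11.5 TPM, and Mbnl3 1.13 and 1.22 TPM from 64 and 63 counts. Mbnl1 held 74.7% of the sum, or 67.6% over transcripts of 1000 nt or more. All 3 stood in the lower part of the list, which Mbnl3 closed.

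The STAR-domain genes include the Khdrbs family and Qk. Khdrbs1 (Sam68), present in most tissues, had 96.6 and 98.1 TPM, Khdrbs2 (SLM1) 35.9 and 41.9 TPM and Khdrbs3 (SLM2) 16.4 and 18.6 TPM, and so 63.4%, 25.3% and 11.4% of the family's sum. Qk, which acts in glia and progenitors, had 31.9 and 32.8 TPM. Of the Musashi pair, known as marks of neural progenitors, Msi1 had 47.9 and 48.7 TPM and Msi2 29.5 and 28.9 TPM.

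Tra2 and SR proteins bind exonic enhancers and are expressed in most cells. Tra2b was at 193 and 187 TPM and Tra2a at 70.4 and 67.2 TPM. The 10 Srsf genes summed to 2205 TPM, of which Srsf3 held 20.9%, Srsf2 19.9% and Srsf5 14.2%. The lowest of the 10 was Srsf4 at 80.7 and 83.5 TPM, above the median of the 41 members. Exons of Srsf2 overlap antisense genes whose highest level was 51.2 TPM. Gene counts were not whole in 9 members (Celf2, Celf5, Ptbp1, Srsf2, Srsf3, Srsf4, Srsf5, Srsf10 and Tra2b, tolerance 0.005), which leaves the split of their reads with other genes uncertain. The deposited posterior SD of the count in these 9 was at most 0.311% of it, in Ptbp1 in replicate 2. Antisense overlaps of exons were found in 12 members, and beyond Ptbp1 and Srsf2 the highest partner was that of Celf3, Riiad1, at 16.6 TPM.

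The other splicing genes of the tissue were likewise all detected. All 20 hnRNP genes, all 30 core spliceosome genes and all 32 other splicing-related genes reached 1 TPM in both libraries, with medians of 141, 85.0 and 82.3 TPM, beside the members' 68.8 TPM and 5.72 TPM over all coding genes. In each list 0 genes were 1.5-fold or more apart between the libraries in either direction. Hnrnpk, Hnrnpa2b1 and Hnrnpa1 led the first list at 1021, 583 and 500 TPM, each above Srsf3, Snrpn led the second at 760 TPM, and Matr3 the third at 529 TPM.

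Transcript use within the members was split. Among 32 members at 5 TPM or more with several annotated transcripts, the transcript of highest TPM held less than 50% of the gene in 15, which is 46.9% of them, against 25.4% of 8177 coding genes. The median leading share was 54.9% over these members and 67.7% over those coding genes. The members have a median of 5 transcripts in the tables and expressed coding genes a median of 4, and the part of transcript number in this was not tested. A further 8 members (Nova1, Ptbp2, Elavl1, Elavl3, Celf3, Khdrbs3, Tra2a and Srsf7) have 1 transcript in the tables, so nothing can be said of their splicing, and Mbnl3 fell under 5 TPM. With protein-coding transcripts alone 7 of the 32 were under 50%, against 10.1% of coding genes, and by estimated counts 10 were, against 14.9%.

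The lowest mean leading share by TPM was that of Mbnl1, over 25 transcripts. Mbnl1-214 held 23.7% and 26.5% by TPM and 46.9% by counts, and Mbnl1-210 was next with 17.2% of the TPM. Celf1-204 led Celf1 with 28.0% and 23.1% of its TPM, which overlaps the Mbnl1 values, and Celf1-205 was next with 16.7%. By counts Celf1-204 held 23.1%, less than Mbnl1-214. Elavl2 was split nearly evenly, with 26.7% for Elavl2-208, 25.3% for Elavl2-209 and 25.0% for Elavl2-201. Srsf10-204 held 29.0% of Srsf10 and Srsf10-205 21.8%. Leading transcripts differed between the libraries in 2 of the 32, or 6.25%, against 6.32% of coding genes. These were Ptbp1, led by Ptbp1-216 in replicate 1 and by Ptbp1-202 in replicate 2, and Elavl2, led by Elavl2-208 and by Elavl2-201. Ptbp1-216 held 32.7% and 27.4% of Ptbp1, and Ptbp1-202 29.1% and 35.8%. Elavl2-208 held 27.4% and 25.9% of Elavl2, and Elavl2-201 23.8% and 26.2%.

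At the other end, 1 transcript dominated in several members. Srrm4-201 held 97.9% and 98.1% of Srrm4, Srsf4-202 a mean of 90.3% of Srsf4, and Msi1-208 89.9% and 86.3% of Msi1. Khdrbs1-201 held 87.3% and 86.5% of Khdrbs1, Khdrbs2-201 80.2% and 80.4% of Khdrbs2, and Celf4-201 78.6% and 77.3% of Celf4. Rbfox2-203 held 67.7% and 68.5% of Rbfox2, and Celf5-201 73.5% and 72.2% of Celf5. Mbnl2 moved more between libraries, since Mbnl2-201 held 67.9% in replicate 1 and 53.7% in replicate 2. In 2 of the 32 members, again 6.25%, against 8.54% of coding genes, the leader was not annotated as protein coding: Elavl4-211 and the retained-intron transcript Srsf5-212, which held 38.6% and 35.9% of Srsf5. By estimated counts the Elavl4 leader was the coding transcript Elavl4-202 with 48.9%, and Srsf5-212 still led with 54.5%.

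The leaders of the remaining members spread between these ends. Celf2-206 held 39.7% and 36.4% of Celf2 by TPM and 54.8% by counts, over 28 transcripts. Ptbp3-201 held 53.5% and 44.6% by TPM and 82.7% by counts. In both genes the leader's count share was above its TPM share. Among the SR genes, Srsf3-202 held 46.4% and 46.0% of Srsf3, followed by the retained-intron transcript Srsf3-205 with 38.8%, which is 910 nt in the tables and 2110 nt in M21. Srsf1-201 held 35.8% and 33.9% of Srsf1, and Srsf11-202 38.3% and 36.8% of Srsf11. Tra2b-204 held 44.6% and 42.0% of Tra2b, followed by Tra2b-201 with 36.2%. Rbfox3-203 held 35.2% and 30.0% of Rbfox3, followed by Rbfox3-201 with 22.1%. Above 50%, Srsf9-201 held 74.6% and 73.2%, Srsf6-203 63.9% and 65.1%, Qk-201 63.7% and 64.8%, Celf6-201 57.0% and 54.6%, and Srsf2-201 53.7% and 54.2%. In Nova2 the leading transcript, with 53.5% and 58.0%, has no entry in M21, and Nova2-201 held the rest.

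The SR and Tra2 genes differed from the other members in annotated transcript type. Transcripts annotated as NMD targets or with a retained intron held 31.4 ± 0.0341% of the summed TPM of the 12 SR and Tra2 genes, 5.96 ± 0.292% of that of the 28 other members at 5 TPM or more, and 8.16 ± 0.106% of that of all coding genes at 5 TPM or more. In the SR and Tra2 genes 11.7% was NMD and 19.7% retained intron. By estimated counts the share was 23.4% in the SR and Tra2 genes and 4.06% in the other members. Transcript types are those of M21, and NMD transcripts are degraded in the cell, so a TPM share is what remained and not what was made.

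Counted by gene, 16 of 40 members, or 40.0%, held 10% or more in such transcripts in both libraries, against 23.3% of coding genes. These were 7 of the 12 SR and Tra2 genes and 9 of the 28 others. These counts rest in part on the annotation, since 4 of the 12 SR and Tra2 genes, 15 of the 28 others and 5681 of the 10868 coding genes have no transcript annotated with either type. Among genes that have one, a count added after the data were seen, 7 of 8 SR and Tra2 genes and 9 of 13 others reached 10%, against 48.7% of coding genes. The median share over such genes was 36.6% for the SR and Tra2 genes, 13.1% for the others and 11.1% for coding genes. Celf6 with 8.73% and 16.1%, Ptbp1 with 8.16% and 10.9%, and Srsf4 with 10.02% and 9.39% reached 10% in 1 library alone. Srsf3 had 53.6% and 54.0% and Srsf11 49.3% and 54.4%, which overlap. Most of the Srsf3 share was Srsf3-205, whose length differs between the annotation releases. By counts Srsf5 had the highest share at 55.8%, before Srsf11 at 40.6% and Srsf3 at 38.2%. Srsf2 had 46.1% and 45.1%, of which 32.5% was the NMD transcript Srsf2-204. Srsf5 had 39.7% and 36.6%, nearly all retained intron. Srsf1 had 34.5% and 35.6% by TPM but 10.1% by counts, and its retained-intron transcript Srsf1-203 is 759 nt long. Srsf7, Srsf9, Srsf10 and Tra2a have no transcript annotated with such a type, so their share could only be 0.

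Outside the SR genes the highest shares by TPM were those of Msi2 and Qk, and by counts those of Qk at 27.7%, Srrm3 at 26.9% and Msi2 at 23.1%. Msi2 had 45.3% and 47.6%, all in retained-intron transcripts. Qk had 36.3% and 35.2%, all in Qk-202, which is 4658 nt in the tables and 5832 nt in M21, so that its M21 type may not describe the transcript that was quantified. Srrm3 had 21.4% and 23.3%, and Ptbp3 19.0% and 23.1%. In 15 of the 28, among them Rbfox1, Rbfox2, Rbfox3, Nova1, Celf1, Celf4 and Elavl4, no transcript is annotated with such a type, and nothing can be said of their share.

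**Figure D3:**
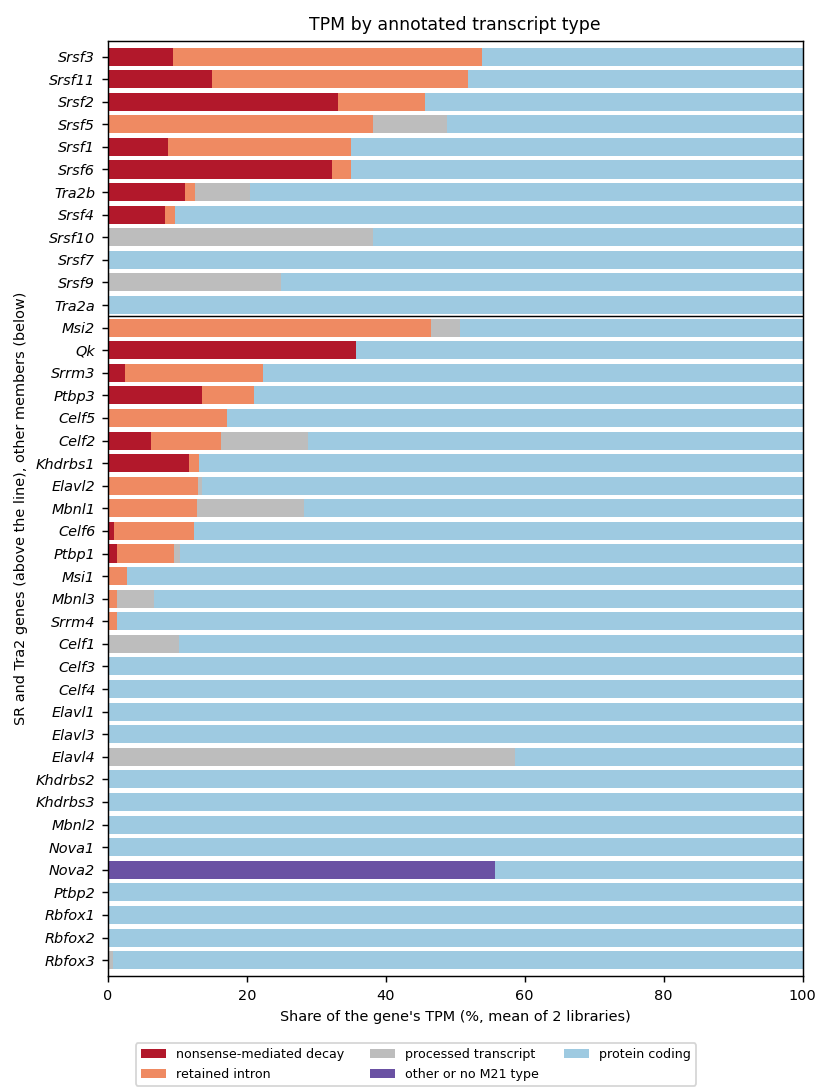
Share of each member's TPM (mean of 2 libraries) by annotated transcript type, with the 12 SR and Tra2 genes above the line and the other members below it. Red and orange (NMD and retained intron) fill over 30% of the bar in 6 SR genes, and in Msi2 and Qk among the others, while Elavl4 has a wide grey bar of processed transcripts.

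Exon inclusion was estimated as the percent of the TPM of transcripts spanning an exon that hold it whole. It rests on transcript estimates and not on junction reads. Only internal exons that some spanning transcript lacks were entered, so the counts are not shares of all internal exons. Of 86 such exons in 21 members, 36 exons in 16 genes had an inclusion of 10 to 90% in both libraries. They lie in 31 separate regions, and the same was not counted over all genes. Of these 36, 22 were skipped whole in the other transcripts, 8 were replaced by a form with another boundary, and 6 showed both. Inclusion differed by a median of 3.38 percentage points between the libraries and by 10.6 at most, in Srsf11. Coding sequence held 20 of the 36, of which 10 were multiples of 3. Exon length bears on the frame only where the whole exon is skipped. The 76-nt exon of Celf1 and the 181-nt exon of Rbfox3, for example, differ from a shorter form by 12 and 141 nt, both multiples of 3.

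The printed poison exons were partly included, as the filter for them required. Exons found in NMD transcripts alone were lower in Srsf4, at most 8.59% and 8.18%. A 266-nt one of Srsf5 was at 0.248% and 0.0986%. The 268-nt exon of Srsf6 printed above had an inclusion of 35.3% and 34.6%, spanned by 100% of the gene's TPM. The Srsf6 values include 2.50% and 3.05% in the retained-intron transcript Srsf6-204, which holds the exon inside a 1557-nt block. The Srsf3 and Tra2b exons lie in transcripts whose lengths differ between the annotation releases, and were only estimated with every exon model entered, an alternative added after the data were seen. Their inclusion was then 22.9% and 26.1% for the 456-nt exon of Srsf3 and 20.3% and 20.3% for the 276-nt exon of Tra2b. The Srsf3 values include 9.02% and 9.52% in the retained-intron transcript Srsf3-204, which holds the exon inside a 2804-nt block. Transcripts spanning the Srsf3 exon had 282 and 280 TPM, of 469 and 451 TPM for the gene. Those spanning the Tra2b exon had 108 and 98.8 TPM, of 193 and 187 TPM. In Srsf11 2 exons of 117 and 109 nt were found in NMD transcripts alone, with inclusions of 59.8% and 70.5%, and of 40.7% and 50.8%, but the transcripts that span them held 22.5% of the gene's TPM, without Srsf11-202. With every exon model entered, which adds that transcript, the 117-nt exon was at 19.8% and 26.9% and the 109-nt exon at 13.5% and 19.4%. Srrm3 had a 20-nt NMD exon at 22.1% and 13.3%, spanned by 13.8% of its TPM.

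Cassette exons in coding sequence were most numerous in Mbnl1 and the Ptbp genes. The 54-nt exon of Mbnl1, known to direct the protein to the nucleus, had an inclusion of 66.8% and 58.3%, and the 36-nt exon 40.9% and 36.3%. A 111-nt exon of Mbnl1 was at 15.8% and 26.1%. The 78-nt exon of Ptbp1, which codes for part of the linker between the second and the third RNA-binding domain and is known to raise repressor activity, was at 37.1% and 34.5%. Ptbp1-216 holds this exon and Ptbp1-202 and Ptbp1-206 lack it. Ptbp3 had a 34-nt exon at 26.3% and 21.3% and a 170-nt exon at 83.6% and 84.2%, and neither length is a multiple of 3. Over protein-coding transcripts alone their means were 14.9% and 100%, so the skipping of the 170-nt exon rested on transcripts of other types. In Celf2 a 144-nt exon was at 79.0% and 79.4%.

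Small shifts of a splice site made up other cases. The 114-nt exon of Celf1 with its CAG was used in 37.6% and 34.1%, and the other spanning transcripts held another boundary, 3 nt shorter in Celf1-205. In Celf6 the longer, 81-nt form had 69.0% and 73.2%, and in Srsf10 the 54-nt form had 83.3% and 81.1%. Shifts of 12 nt were found in Celf1, whose 76-nt form had 68.1% and 74.9%, and in Celf2, whose 132-nt form had 23.5% and 25.0%. Larger ones included the 181-nt exon of Rbfox3 at 40.1% and 41.4%, whose other form is 141 nt shorter. Transcripts that differ by 3 nt are almost the same to the quantifier, and the deposited intervals were wide for them: Srsf10-202, the shorter form, had 11.3 TPM with an interval of 6.57 to 15.3 TPM in replicate 1.

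**Figure D4:**
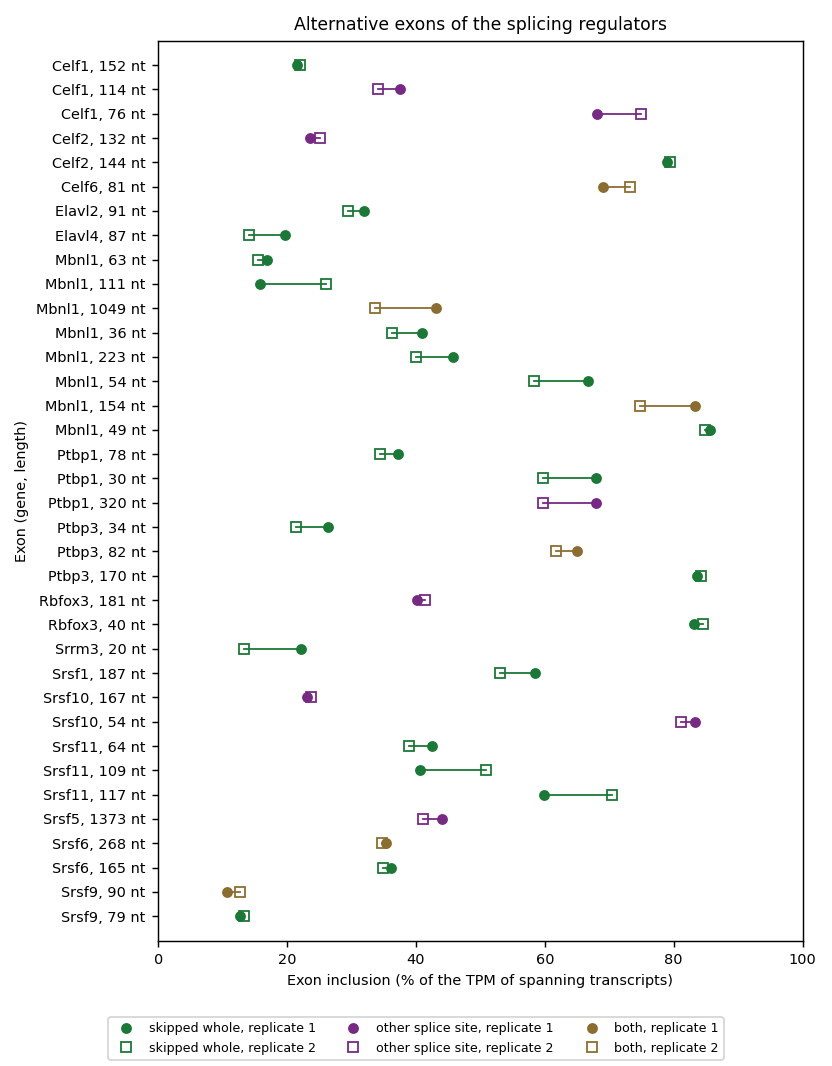
Inclusion of the 36 alternative exons in replicate 1 (filled circles) and replicate 2 (open squares), joined by a line, with colours for exons skipped whole, replaced by a form with another splice site, or both. Most pairs lie within a few points of each other, and the widest, in Srsf11, is 10.6 points apart.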

How the data were processed

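Total RNA of 2 hindbrain libraries was analysed, replicates 1 and 2 of 1 group per the labels, from separate pools of embryos. The deposited estimated counts, TPM, FPKM and the percent of each gene's TPM per transcript were computed per library against mm10 and annotation release M4, from reads aligned to transcripts, with no pooling, per the file headers and accompanying notes. Which aligner and quantifier were used, and whether strand entered, is not given in the sources used here. As an alternative, the deposited posterior TPM (a signal with its interval, per the file headers) was used. TPM is scaled over all features, spike-ins included, which held 2.86% and 3.09% of counts. A gene's TPM sums its transcripts, so reads given to short transcripts raise it.

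Symbols, types and exon models came from GENCODE M21 on GRCm38, the assembly of mm10, by identifier without version: 42462 of 43346 genes matched, and 261 of the members' 286 transcripts had the same length in both releases. The main exon estimates used only those. Means, SDs and shares were computed in Python 3.11.15. Counts were rounded and scaled with TMM in edgeR 4.0.16 (R 4.3.3), with a prior count of 0.5, and tested on simulated data; DESeq2 1.42.0 size factors were an alternative. Leading transcripts needed a gene at 5 TPM in both libraries. With 1 group no p-value was computed. Members and lists were chosen with earlier results of these data known. All members are accounted for; of transcripts the leader, and the next where the leader is under 50%, could be named, and of other lists the 3 highest. Protein sequences were not used here.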

Additional observations from a re-analysis of the deposited data

How the results depend on the processing

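Detection of the members, with counts of 40 to 41, and the 0 members past 1.5-fold in each direction held under every alternative run. Scaling TPM over nuclear coding genes gave a median level of 87.5 TPM and raised each member 1.27 times, by construction. Spike-in totals gave a median log2 ratio of -0.13. With protein-coding transcripts alone, 7 members had a leader under 50%, against 10.1% of coding genes, and 22 exons were alternative, since fewer transcripts enter. By estimated counts 10 members had a leader under 50%, 1 had leaders that differ and 1 a leader that is not coding, against 14.9%, 4.93% and 4.67% of coding genes. With transcripts of 1000 nt or more these counts were 11, 2 and 1, against 13.8%, 5.21% and 6.96%. The share in NMD and retained-intron transcripts was 23.5% as a mean over genes and 23.4% by counts for the SR and Tra2 genes, and 7.996% and 4.06% for the other members; the cause was not tested. With transcripts of 1000 nt or more, 23 of 41 levels and 32 of 40 family shares moved by over 1 SD; with posterior TPM 14 and 9 did. Leaving out a library gave 31.4 to 31.4% for the SR and Tra2 genes, 5.76 to 6.17% for the others, 14 to 15 leaders under 50% and 37 to 38 exons. No paired analysis was possible because there is 1 group. The 2 libraries limit precision, and intervals cover counting error only.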
